A study of Mus musculus with 2 samples.

Results

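Wnt ligands are secreted signalling proteins that are lipid-modified by Porcn and carried to the cell surface by Wls. They bind frizzled receptors together with the co-receptors Lrp5 and Lrp6, and secreted inhibitors of the Sfrp and Dkk families block the ligand or the co-receptor. In the absence of ligand, a complex that holds axin and Apc marks β-catenin, the product of Ctnnb1, for destruction; with ligand present, β-catenin enters the nucleus and acts with the TCF/LEF factors, while the R-spondins raise the number of receptors at the cell surface. In the cerebellum Wnt7a is known as a granule cell signal that acts on incoming mossy fibres, and Wnt1 is known for its role at the embryonic midbrain-hindbrain boundary. The genes described here are 52 members of this pathway, listed by name and function, out of 21670 coding genes on the autosomes and X. They comprise 18 ligands, 12 receptors, 8 secreted inhibitors, 4 R-spondins, 4 genes of the destruction complex and its target (Axin1, Axin2, Apc and Ctnnb1), 4 TCF/LEF factors and the 2 secretion genes Porcn and Wls.

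The data are DNase-seq, in which the enzyme DNase I cuts accessible DNA, dense clusters of cuts are called as peaks and short protected gaps inside them as footprints. The 2 libraries were made from cerebellum tissue of B6CASTF1/J mice, a first-generation hybrid strain, all male and 4 days old, with 3 males named in each label, so each library appears to be a pool of animals. They form 1 group, numbered biological replicates 1 and 2, with no treatment and no second condition, so the values of both libraries are given and no difference between groups could be tested. No expression was measured, and in whole tissue fewer cells of a type and weaker accessibility per cell cannot be told apart.

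A promoter peak here is a peak of the larger deposited list within 500 bp of a protein-coding start, and the value given is the authors' normalised signal of the strongest one. The depth in reads is unknown, and replicate 2 had 131518 peaks against 61896 in replicate 1. Over all coding genes that were open, that is with such a peak, in both libraries the median log2 difference, replicate 2 over replicate 1, was 1.02. Promoter peaks in both libraries were found for 6 of 9 granule cell markers and 6 of 8 Purkinje cell markers, and for 0 of 6 microglial and 0 of 6 choroid plexus markers. The share of all coding genes was 58.9%. These lists also differed in the CpG observed/expected ratio of the promoter, which is used below. Its median was 0.679 for granule cell, 0.711 for Purkinje cell and 0.238 for microglial markers, beside 0.619 for all coding genes. The choroid plexus median also lay below that of all coding genes. Among the defining markers, no promoter peak was called for Gabra6 and Barhl1 of granule cells or for Pcp2 of Purkinje cells. The marker lists that gained most in replicate 2 were forebrain, with 3 of 10 promoters open in replicate 1 and 9 of 10 in replicate 2, Bergmann glia and astrocytes with 5 and 9 of 9, endothelial and mural cells with 2 and 5 of 8, and meninges with 2 and 4 of 8. Hindbrain Hox genes went the other way, with 4 of 8 in replicate 1 and 2 of 8 in replicate 2. The marker counts were not repeated with equal numbers of peaks from each library. Whether they reflect tissue content, promoter CpG content or the number of peaks called was not tested, nor was their part in the results below.

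Wnt pathway promoters split by role. All 4 genes of the destruction complex group, 11 of 12 receptors and both secretion genes were open at the promoter in both libraries, whereas 3 of 18 ligands were. The secreted inhibitors stood at 4 of 8, the R-spondins at 2 of 4 and the TCF/LEF factors at 2 of 4. Over all 52 members 28 (53.8%) had a promoter peak in both libraries, beside 58.9% of all coding genes. A further 9 of the 52 had one in replicate 2 alone, a higher share than the background of 6.10%. Among marker promoters, 6 of 10 forebrain, 4 of 9 glial and 4 of 8 endothelial and mural ones were open in replicate 2 alone. The same held for 2 of 8 meningeal, 1 of 9 granule cell and 1 of 6 choroid plexus markers. It held for 0 of 8 Purkinje cell, 0 of 6 microglial and 0 of 8 hindbrain Hox markers. Once both libraries were cut to the same number of peaks, 4 of the 52 members were open in replicate 2 alone. The marker lists were not counted in that way, and a link between them and the members was not tested. In replicate 1 alone 1 of the 52 members had a promoter peak, beside 0.974%. The remaining 14 had none in either library, beside 34.0%. The members' share open in both libraries therefore sits near that of all coding genes, and the classes lie on either side of it. That reference takes no account of CpG content.

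**Figure D1:**
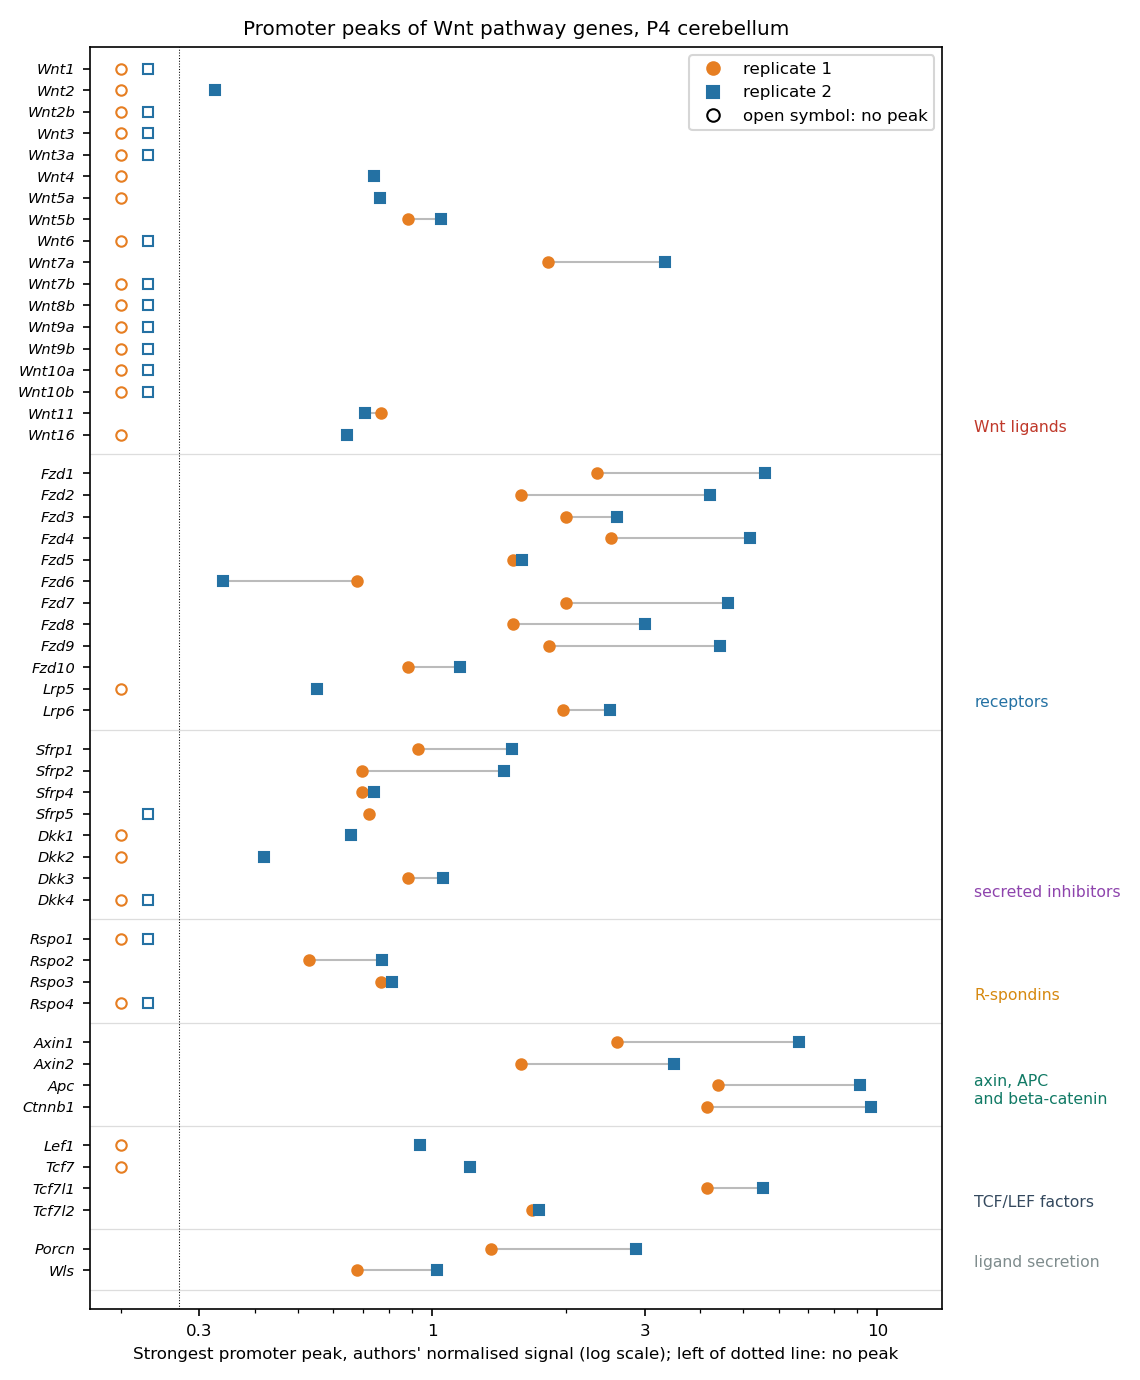
Strongest promoter peak of each of the 52 genes by class, as the authors' normalised signal on a log scale, with circles for replicate 1 and squares for replicate 2 and open symbols left of the dotted line where no peak was called. Most ligand rows hold open symbols, while every receptor row except Lrp5 and every row from Axin1 to Ctnnb1 holds 2 filled symbols.

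Promoter peaks in these libraries went with the CpG content of the promoter, so that reference was applied to each class. With all coding genes put into 10 equal classes of the CpG observed/expected ratio, the share open in both libraries was 0.784% in the lowest class and 96.9% in the highest. The 18 ligands had CpG-rich promoters for the most part, with a median ratio of 0.743 beside 0.619 for all coding genes. At the share of their own CpG classes 14.4 of the 18 would have a peak in both libraries, against the 3 that did. The same reckoning gave 11.1 for the 12 receptors, of which 11 had one, and 3.86 for the 4 destruction complex genes, of which all 4 had one. For the 4 TCF/LEF factors it gave 3.73 against 2, for the 4 R-spondins 3.47 against 2, for the 8 secreted inhibitors 4.76 against 4, and for Porcn and Wls 1.62 against 2. Over all 52 members it gave 42.9, against the 28 that had one. So the members as a whole lay below coding genes of like CpG content, with the largest shortfall among the ligands. These are descriptions of 1 gene list and carry no test.

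**Figure D2:**
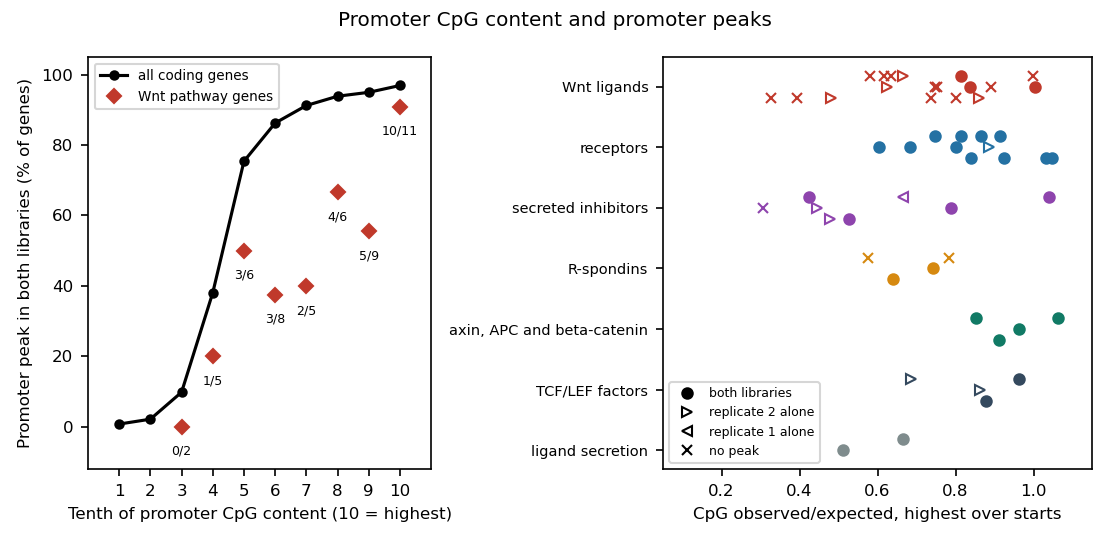
Left, percent of genes open at the promoter in both libraries for each of 10 equal classes of promoter CpG content, for all coding genes (line) and for Wnt pathway genes (diamonds, with counts). Right, the CpG observed/expected ratio of each member by class, with the symbol giving the libraries in which a promoter peak was called. Ligands without a peak reach a ratio of 1.00 (Wnt9a), and the open receptors reach 1.05 (Lrp6).

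A pair of CpG-dense promoters shows the contrast in sequence. Wnt9a, a ligand, had no peak within 500 bp of either of its coding starts in either library. Within 2000 bp it had peaks of 2.03 in replicate 1 and 1.98 in replicate 2, so only the start region itself lacked a peak. Ctnnb1 had the highest mean value of all members. Both genes were chosen after their values were seen. The 200 bases upstream of a start of each are given 5′ to 3′ on the gene's strand in mm10 (GRCm38), with each CG in capitals. The Wnt9a stretch (chr11:59306728-59306927, plus strand) holds 41 CpG and the Ctnnb1 stretch (chr9:120933200-120933399, plus strand) holds 32.
Wnt9a: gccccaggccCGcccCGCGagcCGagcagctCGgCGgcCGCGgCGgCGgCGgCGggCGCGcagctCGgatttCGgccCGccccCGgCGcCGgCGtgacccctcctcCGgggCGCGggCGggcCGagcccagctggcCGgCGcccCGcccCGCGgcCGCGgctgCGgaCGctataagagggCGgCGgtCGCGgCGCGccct
Ctnnb1: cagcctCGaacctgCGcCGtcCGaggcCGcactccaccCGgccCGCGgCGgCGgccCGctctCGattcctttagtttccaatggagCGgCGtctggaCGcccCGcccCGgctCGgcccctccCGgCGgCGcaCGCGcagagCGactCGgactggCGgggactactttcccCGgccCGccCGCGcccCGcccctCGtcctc

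Among the ligands, Wnt7a had the strongest promoter peak, with 1.82 in replicate 1 and 3.33 in replicate 2, at percentiles 42.4 and 43.6 of all open promoters. Wnt5b, a ligand of the β-catenin-independent branch, had 0.884 and 1.04. Wnt11, of the same branch, had 0.768 and 0.705. These 3 were the ligands open in both libraries, and the values of Wnt5b (percentiles 14.9 and 16.7) and Wnt11 (10.9 and 10.5) were low among open promoters. Another 4 ligands had a peak in replicate 2 alone: Wnt5a had 0.765, Wnt4 had 0.738, Wnt16 had 0.645 and Wnt2 had 0.326. The other 11 ligands, Wnt1, Wnt2b, Wnt3, Wnt3a, Wnt6, Wnt7b, Wnt8b, Wnt9a, Wnt9b, Wnt10a and Wnt10b, had no promoter peak in either library. Wnt3 and Wnt3a are classical activators of β-catenin signalling, and Wnt8b is best known from the embryonic forebrain.

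The ligand count depended on where a promoter was taken to be. With a window of 2000 bp on either side of each start, 6 of 18 ligands had a peak in both libraries, Wnt5a, Wnt7b and Wnt9a being added. Wnt5a then had 0.690 in replicate 1 and 0.765 in replicate 2, Wnt7b had 2.44 and 4.08, and Wnt9a had 2.03 and 1.98. With the 5′-most coding start alone the count was 1 of 18, because the open starts of Wnt5b and Wnt11 are internal ones. Wnt5b has 4 coding starts, and the shared peak lies at the start at 119449386 on chromosome 6, while the 2 upstream starts near 119544347 held a peak of 0.581 in replicate 1 alone. In Wnt11 the open start is the one at 98838845 on chromosome 7, and the 2 starts upstream of it had no peak. With a window of 250 bp the ligands stood at 2 of 18 and with the stricter peak list at 1 of 18, Wnt7a dropping out of the former and being the one left in the latter.

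For both Wnt7 genes the strongest nearby site lay upstream of the start and not on it. The Wnt7a peak that both libraries share began 458 bp upstream of the only coding start (91411363 on chromosome 6), and replicate 2 also had a weaker peak of 0.998 over the start itself. At Wnt7b, which with Wnt7a is known for guiding blood vessel growth into the brain, the nearest shared peak began 668 bp upstream of the outermost coding start (85582473 on chromosome 15), with 2.44 and 4.08. No peak was called within 500 bp of any of its 5 coding starts. So the Wnt7b start region was counted as without a promoter peak while values above those of the Wnt7a promoter stood just outside the window.

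An upstream site of each Wnt7 gene is shown because these sites bear on how the ligands are counted. They are given 5′ to 3′ on the minus strand, the strand of both genes, in mm10, with each CG in capitals. Their positions are chr6:91411821-91412000 for Wnt7a and chr15:85583141-85583340 for Wnt7b.
Wnt7a upstream site: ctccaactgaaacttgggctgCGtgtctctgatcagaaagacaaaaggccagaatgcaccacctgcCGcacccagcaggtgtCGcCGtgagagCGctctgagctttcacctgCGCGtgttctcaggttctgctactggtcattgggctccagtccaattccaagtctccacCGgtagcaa
Wnt7b upstream site: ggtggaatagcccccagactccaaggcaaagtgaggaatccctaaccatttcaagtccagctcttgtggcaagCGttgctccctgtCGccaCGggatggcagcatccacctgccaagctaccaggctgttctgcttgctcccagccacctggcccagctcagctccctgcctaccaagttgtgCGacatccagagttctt
They hold 8 and 4 CpG, far fewer than the Wnt9a and Ctnnb1 stretches. Both held footprints in both libraries, with 4 in each library at the Wnt7a site, most of which reaches beyond the 500 bp window and 4 and 5 at the Wnt7b site.

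The receptors formed the most uniformly open large class. All 10 frizzled promoters were open in both libraries, and the strongest by the mean of both libraries were Fzd1 with 2.35 and 5.59 and Fzd4 with 2.52 and 5.17, whose order was opposite in replicate 1. Fzd7 had 1.99 and 4.62, Fzd9 had 1.83 and 4.43 and Fzd2 had 1.59 and 4.22. These 5 had more than the 1.02 log2 difference that was the median of all genes. Fzd8 had 1.52 and 3.01, Fzd3 had 1.99 and 2.60, and Fzd5 had nearly the same value in each library, 1.52 and 1.59. Fzd10 was weaker, with 0.884 and 1.16. Fzd6 was the weakest and the only receptor that was lower in replicate 2, with 0.677 and 0.339, a log2 difference of -0.997, and it was absent from the stricter list of both libraries. The Fzd7 peak lay 284 bp from the start and was lost with the 250 bp window.

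The co-receptors differed from each other. Lrp6 had a promoter peak in both libraries, with 1.97 and 2.51. Lrp5 had one in replicate 2 alone, at 0.552, although its promoter CpG ratio (0.885) lies in the 9th of 10 classes. No replicate 1 interval under a false discovery rate of 0.05 lay in the Lrp5 promoter window either. Lrp5 and Lrp6 therefore differed in call in replicate 1 and by 0.552 against 2.51 in replicate 2.

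Ctnnb1 and Apc had the strongest promoters of the list by the mean of both libraries. Ctnnb1 had 4.13 and 9.67, and Apc had 4.37 and 9.16, at percentiles 88.1 and 87.6 for Ctnnb1 and 90.8 and 85.5 for Apc. Axin1, a scaffold of the destruction complex, had 2.61 and 6.67. Axin2, the related scaffold that is itself a widely used target gene of the pathway, had 1.59 and 3.50 at its 5′-most start. Axin2 has 5 coding starts, and the values were lower downstream, with 1.55 and 2.31 at the third start, 0.845 and 1.30 at the fourth and no peak at the fifth. Apc had a second open start at 34247698 on chromosome 18, with 1.61 and 3.61. In Ctnnb1 the strong peak lies at 3 internal starts, and the 5′-most start held 0.659 in replicate 2 alone.

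The 4 TCF/LEF factors split into 2 pairs. Tcf7l1, usually a repressor, had 4.13 and 5.52, and Tcf7l2 had 1.68 and 1.74 at its main group of starts. Tcf7l2 also had an internal open start at 55895510 on chromosome 19, with 1.00 and 0.938. Lef1 and Tcf7 had a promoter peak in replicate 2 alone, with 0.938 and 1.22. These were the strongest values among the 9 members open in replicate 2 alone. Lef1 stayed without any peak in replicate 1 within 100 kb of its starts, and both Lef1 and Tcf7 had a peak in replicate 2 alone also when equal numbers of the strongest peaks were taken from each library.

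Secreted inhibitors had modest promoter values throughout. Sfrp1 had 0.929 and 1.51, Sfrp2 had 0.697 and 1.45, Sfrp4 had 0.697 and 0.738, and Dkk3, the least typical of the Dkk family, had 0.884 and 1.06. Sfrp5 was the only member with a peak in replicate 1 alone, at 0.722, and that peak was not in the stricter list. Dkk1 and Dkk2, which bind the Lrp co-receptors, had a peak in replicate 2 alone, with 0.659 and 0.419. Dkk4 had none, and its nearest peak in either library lay 29318 bp away. With the 2000 bp window Dkk1 (0.503 and 0.659) and Dkk2 (0.987 and 1.70) were counted in both libraries. Rspo2 had 0.529 and 0.772 and Rspo3 had 0.768 and 0.812, while Rspo1 and Rspo4 had no promoter peak. Porcn had 1.35 and 2.87 and Wls 0.677 and 1.02.

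With the stricter peak list 22 of the 52 members had a promoter peak in both libraries, a lower share than the 52.3% of all coding genes. The 6 that were lost were Wnt5b, Wnt11, Fzd6, Fzd10, Sfrp4 and Rspo2, all of them weak in replicate 1. Footprints within the promoter window were called in both libraries at 28 of the 52 members, beside 56.5% of all coding genes. Ctnnb1 held 6 and 13 promoter footprints and Apc 7 and 12, whereas Wnt7a, Wnt5b and Wnt11 held 1 in each library. These counts run over the windows of all coding starts, 6 in Ctnnb1, 3 in Apc, 1 in Wnt7a, 4 in Wnt5b and 3 in Wnt11. The whole Wnt7a peak, most of it outside the window, held 4 in each library. Of the ligands open in replicate 2 alone, Wnt16 held 8 there, Wnt5a 7, Wnt2 2 and Wnt4 1. Where no peak was called, weak signal was sometimes present: intervals under a false discovery rate of 0.05 lay in the promoter windows of Wnt4, Wnt5a and Rspo4 in replicate 1, 3 of the 23 members without a peak there, and of Wnt1 and Rspo1 in replicate 2, 2 of 15. Over all coding genes without a peak the shares were 2.87% in replicate 1 and 2.23% in replicate 2.

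Most open Wnt pathway promoters had the higher value in replicate 2. Of the 28 members open in both libraries 26 were higher in replicate 2, beside 92.6% of all coding genes open in both, and the exceptions were Wnt11 and Fzd6. Their median log2 difference was 0.65 (SD across members 0.57, n = 28 genes), with a range from -0.997 to 1.41, the top being Fzd2. With the stricter peak list the members' median was 1.01, so the 0.65 depended on the weaker peaks. The median of all coding genes was not computed for the stricter list. In the larger list the median of all coding genes, 1.02, was exceeded by 11 of the 28. The open members were also weaker than open promoters at large, with median values of 1.55 and 2.55 beside 2.14 and 4.46, and the part of that level in the difference was not tested. By class the median was 1.18 for the destruction complex genes, 0.99 for receptors, 0.84 for the secretion genes, 0.48 for secreted inhibitors, 0.31 for R-spondins, 0.24 for the ligands and 0.23 for TCF/LEF factors. The ligand median rests on 3 genes, and those of the secretion genes, R-spondins and TCF/LEF factors on 2 each. With 1 library on each side these differences have no replicate check.

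**Figure D3:**
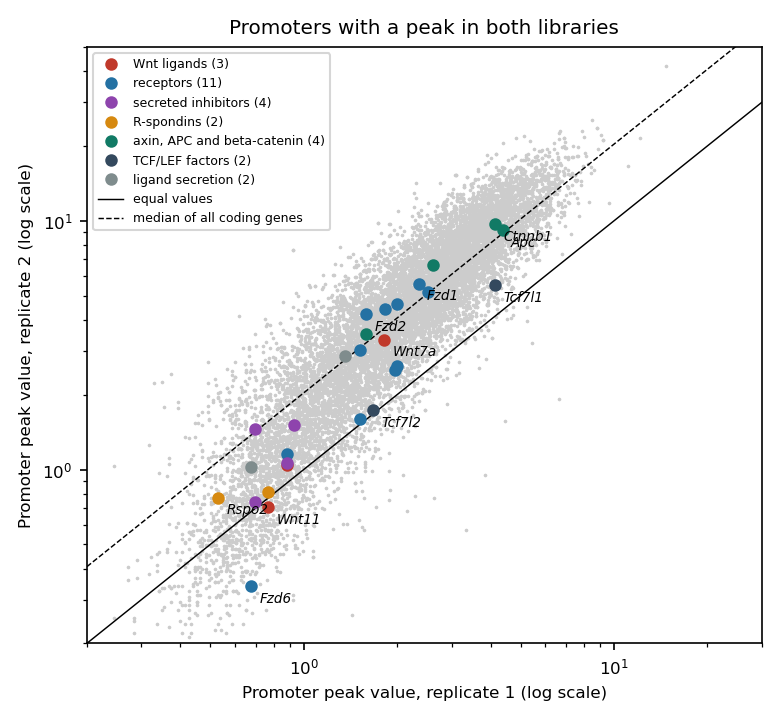
Promoter peak value in replicate 2 against replicate 1 on log scales for all coding genes open in both libraries (grey) and the 28 Wnt pathway genes (coloured by class). The solid line marks equal values and the dashed line the median of all coding genes; Fzd6 and Wnt11 lie below the solid line, and 11 of the 28 lie above the dashed one.

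The 54 other pathway genes, a list of kinases, Dishevelled proteins, co-repressors, polarity genes and further inhibitors and receptors, had promoter peaks in both libraries at 46, in replicate 2 alone at 3 and in neither at 5. The share open in both libraries was 85.2%, beside 58.9% of all coding genes. The promoters of this list were richer in CpG, with a median ratio of 0.782 beside 0.619 for all coding genes. Of the 54, 29 lay in the 3 highest CpG classes. No count at the share of their own CpG classes was made, so the 85.2% cannot be read as unusually high. The 3 strongest by mean were Tle4, a Groucho co-repressor that binds TCF factors, with 6.41 and 19.5, Btrc, the ubiquitin ligase subunit that recognises β-catenin, with 7.62 and 18.2, and Csnk1d, a casein kinase, with 6.69 and 14.5. All 3 exceeded Ctnnb1 and Apc in both libraries. The genes with no promoter peak were Wnt8a, a further ligand, Sost, the secreted inhibitor sclerostin, Kremen2, a Dkk receptor, Lgr6, an R-spondin receptor, and Tle2. The 3 open in replicate 2 alone, named here after their values were seen, were Celsr1 (0.772), Notum (0.539) and Sostdc1 (0.346).

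Distal peaks lay over 1000 bp from every coding start, within the gene or up to 50 kb beyond either end, and a replicate 1 peak that overlapped a replicate 2 peak was counted as shared. The 52 loci held 128 distinct shared distal peaks, and 45 of 52 loci held at least 1, beside 71.9% of all coding loci. Of the 128, 62 lay outside coding genes, 34 in an intron and 10 in an exon of the member, and 22 in another coding gene. Replicate 1 had 59 further distal peaks of 187 without a replicate 2 partner (31.6%, beside 38.1% of all its distal peaks), and replicate 2 had 290 of 418 without a replicate 1 partner (69.4%, beside 76.0%). The shared peaks had a median log2 difference of 0.47, beside 0.49 for all shared distal peaks, and 93 of the 128 (72.7%) were higher in replicate 2, beside 75.3% of all shared distal peaks. Of the 128, 11 came within 500 bp of the start of a transcript that is not protein-coding. Neither this count nor the split by position was made over all shared distal peaks. Neither can therefore be read as particular to the members.

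Ligand loci were well supplied with distal peaks although most of their promoters had none. All 18 ligand loci held at least 1 shared distal peak, 51 distinct ones in all, with a median of 2.23 per 100 kb beside 0.975 for all coding loci. The corresponding median was 1.34 for receptors, 1.41 for secreted inhibitors, 2.00 for TCF/LEF factors, 0.953 for R-spondins and 0.877 for the destruction complex genes. Wnt7b held 8, all outside coding genes, and 7 of them upstream, which at 5.44 per 100 kb placed it at the 96.8th percentile of all coding loci. Wnt5b held 9, of which 8 lay in its own introns. Neighbouring ligands shared sites: Wnt6 and Wnt10a, 6.19 kb apart on chromosome 1, had the same 5 peaks, and Wnt3a and Wnt9a, 16.2 kb apart on chromosome 11, had 5 distinct peaks between them, 3 of which lay in both loci. Wnt1 and Wnt10b, 11.7 kb apart on chromosome 15, had 3 distinct peaks, of which 2 lay in both loci. Wnt3 and Wnt9b, 24.3 kb apart on chromosome 11, also had 3, of which 1 lay in both.

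**Figure D4:**
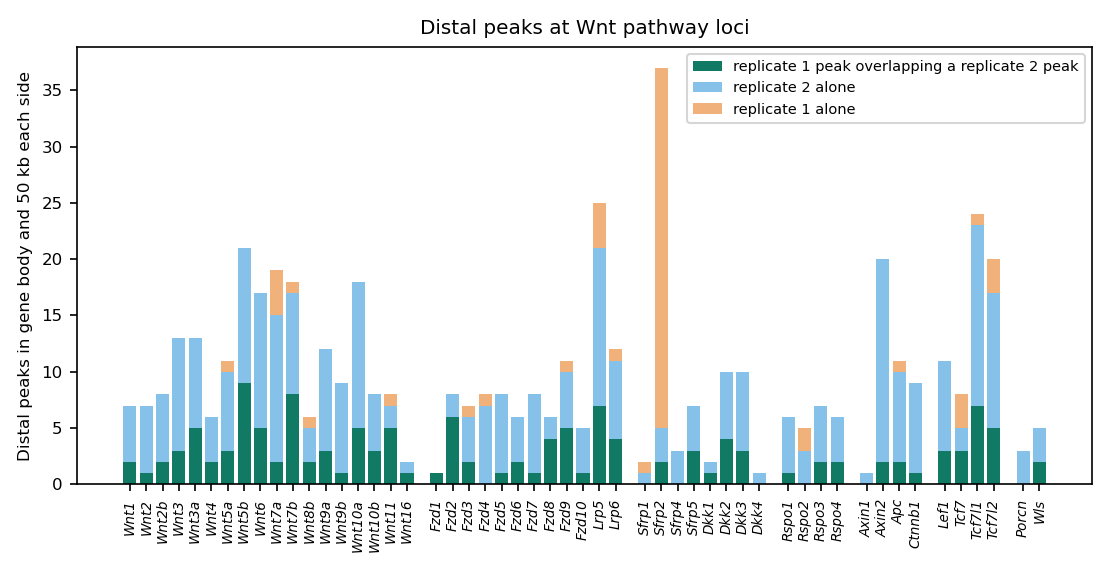
Number of distal peaks at each of the 52 loci, stacked as replicate 1 peaks that overlap a replicate 2 peak, peaks of replicate 2 alone and peaks of replicate 1 alone. Every ligand locus has a shared peak, and Sfrp2 stands out by its 32 peaks of replicate 1 alone.

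Among the other classes, Fzd2 held 6 shared distal peaks (97.5th percentile per 100 kb), Fzd9 held 5, and Lrp5 and Tcf7l1 held 7 each. Fzd8 held 4, all of them inside its own exon. Axin2 held 2 shared peaks but 18 of replicate 2 alone. No shared distal peak was found at Fzd4, Sfrp1, Sfrp4, Dkk4, Rspo2, Axin1 or Porcn. Of these 7 genes, 6 nevertheless had promoter peaks in both libraries, the exception being Dkk4.

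The strongest shared distal peak lay at position -29577 bp relative to the Wnt7a 5′ end, with 4.57 and 9.23, above the Wnt7a promoter value in each library. It came within 500 bp of the start of 1810044D09Rik, a long non-coding RNA, and of a processed pseudogene transcript, so it also lies at the start of these. The second strongest, in the Fzd3 locus at chr14:65149881-65150260 with 3.44 and 8.50, came within 500 bp of the start of a non-coding transcript of Extl3. The other 3 of the 5 strongest, at none of which such a start lay within 500 bp, were a second Fzd3 site (4.12 and 4.96), a Wnt11 site at -19722 bp (2.94 and 5.35) and a site shared by Wnt10a and Wnt6 (3.83 and 4.46).

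The Wnt7a site is printed as the strongest of the list (chr6:91440841-91441040, mm10, plus strand, outside coding genes). Its capitals mark TGACGTCA, the palindromic cyclic AMP response element, which was looked for after the sequence had been seen.
Wnt7a distal site: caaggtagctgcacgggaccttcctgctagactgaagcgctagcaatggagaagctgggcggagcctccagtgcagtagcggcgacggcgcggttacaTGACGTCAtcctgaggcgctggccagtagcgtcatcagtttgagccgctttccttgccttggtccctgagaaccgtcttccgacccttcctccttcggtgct
On either strand TGACGTCA was present in a 300 bp window at 2 of the 128 member sites (1.56%), beside 0.606% of all 24085 shared distal peaks. One of the 2 is the printed site, in which the letters were first noticed, and without it the count was 1 of 127 (0.787%). No TCF/LEF match lay in the printed site.

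At the TCF/LEF and axin loci the strongest shared distal peaks were weaker. The Lef1 locus had one of 2.62 and 2.95 at 127479 bp downstream of its start, inside a neighbouring coding gene, so that in replicate 1 this locus was open at a distance while its promoter was not. Tcf7 had 1.57 and 2.18, Tcf7l1 had 1.34 and 2.90 in its own intron, and Tcf7l2 had 1.07 and 1.94. The Axin2 site, in an intron 5051 bp downstream of the start, had 2.38 and 3.62, which is above the Axin2 promoter value in both libraries.

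The Axin2 intron site is shown because Axin2 is the classical readout of the pathway (chr11:108925301-108925500, mm10, plus strand). The capitals mark its single E-box of the form CAGATG, read on the minus strand, and no TCF/LEF letters were found in it.
Axin2 intron site: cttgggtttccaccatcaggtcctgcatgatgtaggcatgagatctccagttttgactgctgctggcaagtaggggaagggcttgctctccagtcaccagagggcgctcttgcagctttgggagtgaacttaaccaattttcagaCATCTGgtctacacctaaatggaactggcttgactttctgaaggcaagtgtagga

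**Figure D5:**
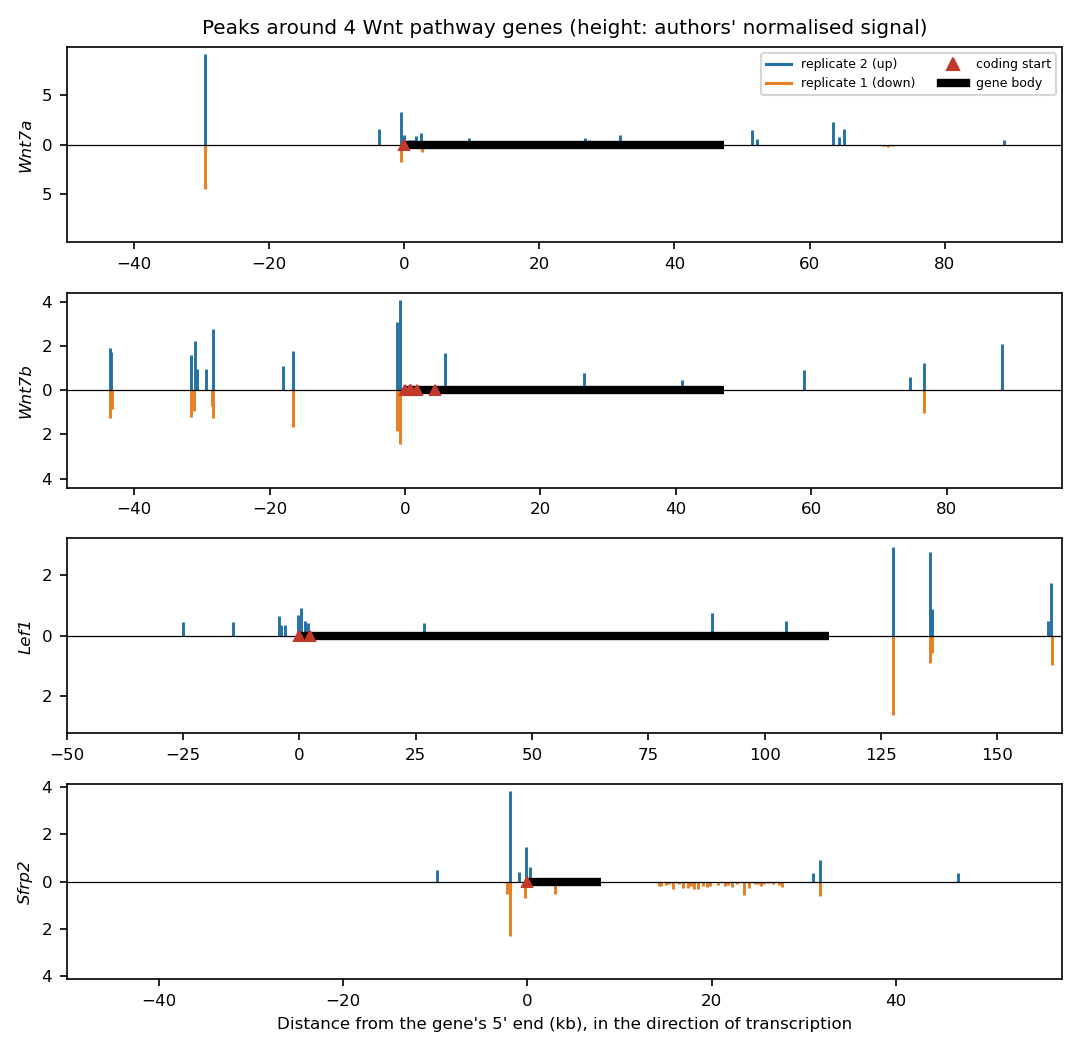
All peaks in the gene body and 50 kb on either side of Wnt7a, Wnt7b, Lef1 and Sfrp2, by distance from the 5′ end in kb, with bar height as the authors' normalised signal (replicate 2 upward, replicate 1 downward), black bars for gene bodies and triangles for coding starts. Wnt7b shows its strongest bar just upstream of the first triangle, Lef1 shows bars of replicate 2 alone at its start and of both libraries beyond its 3′ end, and Sfrp2 shows a run of low bars in replicate 1 alone.

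Sfrp2 stood apart by the number of peaks in 1 library. Its locus held 34 distal peaks in replicate 1, of which 32 had no replicate 2 partner. Of these, 30 formed a run of 13.6 kb downstream of the gene (chr3:83780461-83794080) with values from 0.0774 to 0.555 and a median of 0.174, beside a median of 0.787 for all replicate 1 peaks. Replicate 2 had 0 peaks in the run. At least as many distal peaks of replicate 1 alone were found at 80 of the 21670 coding loci (0.369%). Without this locus the members had 27 distal peaks of replicate 1 alone in place of 59. A shared peak at -1891 bp from the Sfrp2 start, with 2.32 and 3.83, was stronger than the Sfrp2 promoter in both libraries.

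TCF/LEF factors bind DNA at a core that was searched as CTTTGAA or CTTTGAT on either strand, which share their first 6 of 7 letters. In a 300 bp window at each shared distal peak, 10 of the 128 member sites held a match (7.81%), beside 9.28% of all shared distal peaks. The exact Clopper-Pearson 95% interval, 3.81% to 13.9%, takes the sites as independent. Many of them share a locus, so the interval is a description and no test. A match inside a footprint in both libraries was found at 0 of the 128 sites, beside 25 of all 24085 shared distal peaks (0.104%). At so low a share a count of 0 says nothing particular about the members. The sites with a match lay at the Wnt2, Wnt6 with Wnt10a, Wnt7b, Fzd6, Lrp5, Lrp6, Dkk2, Dkk3 and Lef1 loci, 2 of them at Fzd6. Of 3 other sequences, chosen after the data were seen, the E-box CAGATG was present at 41 of 128 (32.0%, beside 26.9%), the nuclear factor I half-site TTGGCA at 25 (19.5%, beside 23.2%) and the Sox core CTTTGTT at 5 (3.91%, beside 6.82%). The Sox core shares CTTTG with the TCF/LEF core.

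Within 500 bp of the first coding start, TCF/LEF letters were present at 12 of the 52 members (23.1%), beside 25.0% of all coding genes. Within 500 bp of any coding start, the members other than Apc and Fzd8 held 28 matches, of which 0 overlapped a footprint in replicate 1 and 3 overlapped one in replicate 2. Those 3 lay in Axin2, 81 bp downstream of the first start and inside the shared promoter peak (1.59 and 3.50), in Dkk1, inside its peak of replicate 2 (0.659), and in Dkk2, inside a peak of replicate 2 (0.299). A further Axin2 match lay 444 bp downstream of the first start, inside a shared peak of 1.55 and 2.31. These 4 lie over untranslated regions and are not printed. Of the others, 6 are shown with 17 bases on either side, plus strand of mm10 and match in capitals, chosen after their values were seen: one inside the shared Lrp6 promoter peak (chr6:134567332-134567372), one inside the Tcf7 peak of replicate 2 (chr11:52283351-52283391), a pair near the third Axin2 start that lies between promoter peaks (chr11:108921215-108921255 and chr11:108921235-108921275) and 2 of the 4 at Dkk4, which had no peak (chr8:22623746-22623786 and chr8:22623884-22623924).
Lrp6: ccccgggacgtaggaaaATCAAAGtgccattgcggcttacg
Tcf7: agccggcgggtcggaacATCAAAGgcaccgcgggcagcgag
Axin2 first: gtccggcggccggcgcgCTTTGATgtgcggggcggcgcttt
Axin2 second: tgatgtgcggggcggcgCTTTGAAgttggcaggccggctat
Dkk4 first: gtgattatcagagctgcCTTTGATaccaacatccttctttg
Dkk4 second: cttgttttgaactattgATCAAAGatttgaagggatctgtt
None of the 6 printed matches overlapped a footprint in either library. The Lrp6 and Tcf7 letters read CTTTGAT on the minus strand. So the letters occurred both in open promoters and at Dkk4, where no peak was called within 29318 bp in either library.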

How the data were processed

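The 2 libraries were used as labelled, as biological replicates 1 and 2 of 1 group. Per the labels and the file headers the authors mapped to mm10 and deposited, for each library, 2 peak lists, false discovery rate intervals and footprints. The peak signal (column 7) is the authors' depth-normalised signal, by a factor not given in the sources used here, and its values under 5 were whole multiples, within 0.05 steps, of 0.00645 and 0.00665. The deposited false discovery rates are q-values under 0.05. The deposited footprint score is a constant, and footprints entered by position alone. Aligner, peak caller and footprint caller were also not given in the sources used here. Genes came from GENCODE M21 on GRCm38 and sequences from the RefSeq GRCm38.p6 genome.

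Promoter peaks were taken within 500 bp of any protein-coding start (strongest peak), distal peaks over 1000 bp from every such start in the gene body and 50 kb each side, and shared peaks overlapped by at least 1 bp. CpG ratios are the highest over a gene's starts. Motifs were searched in 300 bp windows. The rule for named genes took every member, the 3 strongest and all closed other pathway genes, the 5 strongest distal peaks and the strongest at each TCF/LEF and axin locus. It also called for sequences with a TCF/LEF match inside a footprint in both libraries, and 0 qualified. The members and lists were chosen with earlier results of these data known. With 2 libraries in 1 group no tests were run; Python 3.11.15, numpy 2.4.6, scipy 1.17.1, pysam 0.24.0, bedtools 2.31.1, samtools 1.23.1 and matplotlib 3.10.9 were used. The counting was tested on simulated data. Other windows, starts, peak lists, flanks, overlaps and motifs were tried, and each library was left out.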

Additional observations from a re-analysis of the deposited data

How the results depend on the processing

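Of 36 alternatives 25 kept their direction and stayed within 1.5 times the main count or within the error of the value. The count of members open in both libraries stayed between 22 (stricter list) and 33 (2000 bp window), and was 29 to 37 with 1 library left out. The 1 member open in replicate 1 alone became 0 with the stricter list, 2 with the 5′-most start and 2 with equal numbers of peaks, and the 9 open in replicate 2 alone became 4 with equal numbers of peaks. The median log2 difference, 0.65, was -0.38 relative to the median of all coding genes, since it is below that median. With the stricter list it was 1.01, and no median of all coding genes was computed for that list. The 128 shared distal peaks became 79 with the stricter list, 65 with flanks of 10 kb, 228 with flanks of 100 kb and 187 to 418 with 1 library left out. Without the Sfrp2 locus, an alternative chosen after seeing the data, the 59 distal peaks of replicate 1 alone became 27. With CTTTGAT alone the TCF/LEF share was 1.56%, beside 3.59% of all shared distal peaks. No paired analysis was possible because there is 1 group. The read depth is unknown, so a missing peak says only that none was called at the depth of that library, and replicate 1 had fewer peaks.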
